A study of Mus musculus with 4 samples.

Results

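Nfia, Nfib, Nfic and Nfix encode the nuclear factor I (NFI) proteins, and Zeb1 and Zeb2 encode the paired zinc-finger E-box binding homeobox proteins. These 6 genes were picked from the 31053 genes of the matrix by symbol, and each symbol matched 1 gene. The choice was made with results of these data known, so every level and ratio of the 6 genes is a description without a test.

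NFI proteins bind DNA as dimers through a conserved amino-terminal domain and act as activators or repressors. In the developing brain they are best known for switching neural progenitors to the production of astrocytes, and they also act in the maturation of some neurons. ZEB proteins bind E-box sequences through zinc-finger clusters at either end of the protein and recruit corepressors such as the CtBP proteins. Zeb1 is known for keeping progenitors undifferentiated and for repressing epithelial genes, and Zeb2 for its roles in interneuron migration, in myelination and in the identity of microglia.

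The superior colliculus is the midbrain area that receives retinal and other sensory input. Nuclei were taken from C57BL/6J mice at embryonic day 19 (E19) and at postnatal days 4, 8 and 21 (P4, P8, P21), and no genotype or treatment other than age separated the groups. Tissue of several animals was pooled into 1 library per stage, so age cannot be told apart from differences between libraries. Counts of unique molecular identifiers (UMIs), each standing for a captured RNA molecule, came with the submitters' assignment of every nucleus to a class and to a subtype, of which 13 were excitatory (EN1 to EN13) and 12 inhibitory (IN1 to IN12).

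The 4 libraries held 2585, 2386, 2504 and 2249 nuclei, 9724 in all, in 9 classes and 35 subtypes, and between 19277512 and 31325079 UMIs. The median nucleus held 6828 UMIs at E19 and 11745 at P21. The pools differed in the sex of their animals, with Xist found in 0.967% of E19 nuclei and in 40.7% to 68.1% of nuclei at the later stages. Marker genes stood highest in the class they mark for inhibitory neurons, excitatory neurons, astrocytes, microglia and endothelial cells when the highest library of each class was compared, but not for the class labelled epithelial. There Ttr, Foxj1 and Folr1 together reached at most 111 CPM (counts scaled to 1000000 UMIs), below the 687 CPM in P4 astrocytes, so that class is named here only as labelled. Across libraries, 18 nuclei carried 1 of 9 barcodes that occur in more than 1 library.

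Levels are given as CPM of the summed UMIs of all nuclei of a class or subtype in a library. Ranges in parentheses are 95% Poisson intervals for levels and their approximate counterparts for log2 ratios. They cover counting error only, not differences between animals or libraries. Log2 ratios were taken with 5 CPM added to both sides, which understates the change of low genes, and a 2-fold difference was called where the higher side also reached 20 CPM. In summed counts, fewer nuclei with a transcript and fewer transcripts per nucleus cannot be told apart, so shares of nuclei with a UMI are given after each nucleus was thinned to 2300 UMIs.

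Nfia (ENSMUSG00000028565) lies on chromosome 4 at 97772734 to 98118874 on the plus strand of GRCm38. Nfib (ENSMUSG00000008575) lies on the same chromosome at 82290173 to 82705750, minus strand. Nfic (ENSMUSG00000055053) spans 81396186 to 81455635 on chromosome 10 and Nfix (ENSMUSG00000001911) spans 84699876 to 84800344 on chromosome 8, both on the minus strand. Zeb1 (ENSMUSG00000024238) is found on chromosome 18 at 5591860 to 5775467, plus strand, and Zeb2 (ENSMUSG00000026872) on chromosome 2 at 44983632 to 45117395, minus strand. Reads of nuclei were counted against a reference that includes introns, so UMIs come from the whole gene body.

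Near-identical copies were not a problem at the level of transcripts. The longest exact run shared by transcripts of any NFI pair was 18 to 32 bases, and that of Zeb1 and Zeb2 was 35 bases, with none in the coding part of both genes. Overlap with genes of the other strand is a limit, first for Nfib, since Gm11266 overlaps it by 39.3 kb on the other strand and the use of strand in counting is not stated. Gm11266 stood at 156 to 184 CPM in astrocytes and at 5.87 CPM or less in both neuron classes. E130114P18Rik, which overlaps Nfia by 5.35 kb, was 88.1 to 140 CPM in astrocytes and at most 3.69 CPM in the neuron classes. The Zeb2 antisense gene Zeb2os was at 1.26 CPM or less in both neuron classes, and at 27.6, 92.2 and 36.0 CPM in microglia at P4, P8 and P21, from 2, 7 and 4 UMIs.

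Promoter sequence was available from RefSeq (GRCm38.p6) for 4 of the 6 genes, with 10 start sites in all. It was searched because ZEB proteins bind the E-box core CACCT, which CACCTG extends by a base, and NFI proteins bind TTGGC. A whole NFI site is TTGGC followed, after any 5 bases, by its reverse complement. Both strands were searched in the 250 bases before each start, and the CACCT matches include those inside CACCTG. The 2 windows below are shown because each holds letters of both families, in genes that differ in where they are expressed. Capitals mark the matches, and CAGGTG is CACCTG read from the other strand.
Zeb2 chr2:45117443-45117692 minus strand: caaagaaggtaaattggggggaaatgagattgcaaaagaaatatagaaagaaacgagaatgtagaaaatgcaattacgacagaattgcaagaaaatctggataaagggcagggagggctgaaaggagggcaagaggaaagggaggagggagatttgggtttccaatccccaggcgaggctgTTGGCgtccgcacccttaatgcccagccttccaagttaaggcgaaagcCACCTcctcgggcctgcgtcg
Nfix chr8:84775829-84776078 minus strand: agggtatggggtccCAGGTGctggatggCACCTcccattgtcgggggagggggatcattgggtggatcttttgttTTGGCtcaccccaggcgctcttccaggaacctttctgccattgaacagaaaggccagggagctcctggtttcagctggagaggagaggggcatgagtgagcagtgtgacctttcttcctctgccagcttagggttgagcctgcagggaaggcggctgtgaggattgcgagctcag

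The Zeb2 window lies before the most upstream of its 4 RefSeq start sites and holds 1 CACCT and 1 TTGGC. The Nfix window lies in an intron of the longer Nfix transcripts, before an internal start, and holds 2 matches to CACCT, of which 1 is the longer CACCTG, and 1 TTGGC. No window of the 4 genes held the whole NFI site. Among 32851 promoter windows of the same length, 46.0% held CACCT, 17.2% CACCTG, 41.5% TTGGC and 0.0365% the whole NFI site, so the single matches are common letters. A match here is a description and not a measured binding site.

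Nfia, Nfib and Nfix were higher in astrocytes than in either neuron class taken as a whole, and Nfia was the most unequal of the 6 genes between astrocytes and neurons. Astrocyte Nfia was 2186 CPM (2092 to 2284), 2056, 2141 and 1972 CPM (1905 to 2042) over the 4 stages in order of age. Excitatory neurons held 62.9, 31.7, 21 and 57.2 CPM in the same order, and inhibitory neurons 109, 51.5, 28.3 and 51.1 CPM. The astrocyte values did not come near those of either neuron class at any stage. After thinning, 95.5% to 98.5% of astrocyte nuclei had a Nfia UMI, against 4.50% to 8.06% of excitatory nuclei. Before thinning, the median astrocyte nucleus held 4697 UMIs at E19 and 5525 at P21, and the median excitatory nucleus 8051.5 and 19601.

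In astrocytes, 3 of the 6 genes were at least 2-fold above the level of all neurons in every library, namely Nfia, Nfib and Nfix, beside 9.55% of the 7124 genes compared. Over the 4 stages the Nfia ratio was 27.8-, 54.6-, 87.9- and 36.2-fold. For Nfib it was 9.0-, 13.6-, 14.6- and 10.1-fold, and for Nfix 13.9-, 17.8-, 20.4- and 17.1-fold. Zeb1 was 4.08-fold higher in astrocytes at E19 and 1.61-fold higher at P21. Its neuronal level was 281 CPM at E19 and 574 at P21, and its astrocyte level 1149 and 923 CPM. Zeb2 differed by 1.17- to 2.04-fold and Nfic by 1.03- to 1.54-fold, so Nfic was close to even between astrocytes and neurons. Zeb2 was past 2-fold at P4, with 351 CPM in astrocytes and 172 in neurons, and short of it at the other stages.

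**Figure D1:**
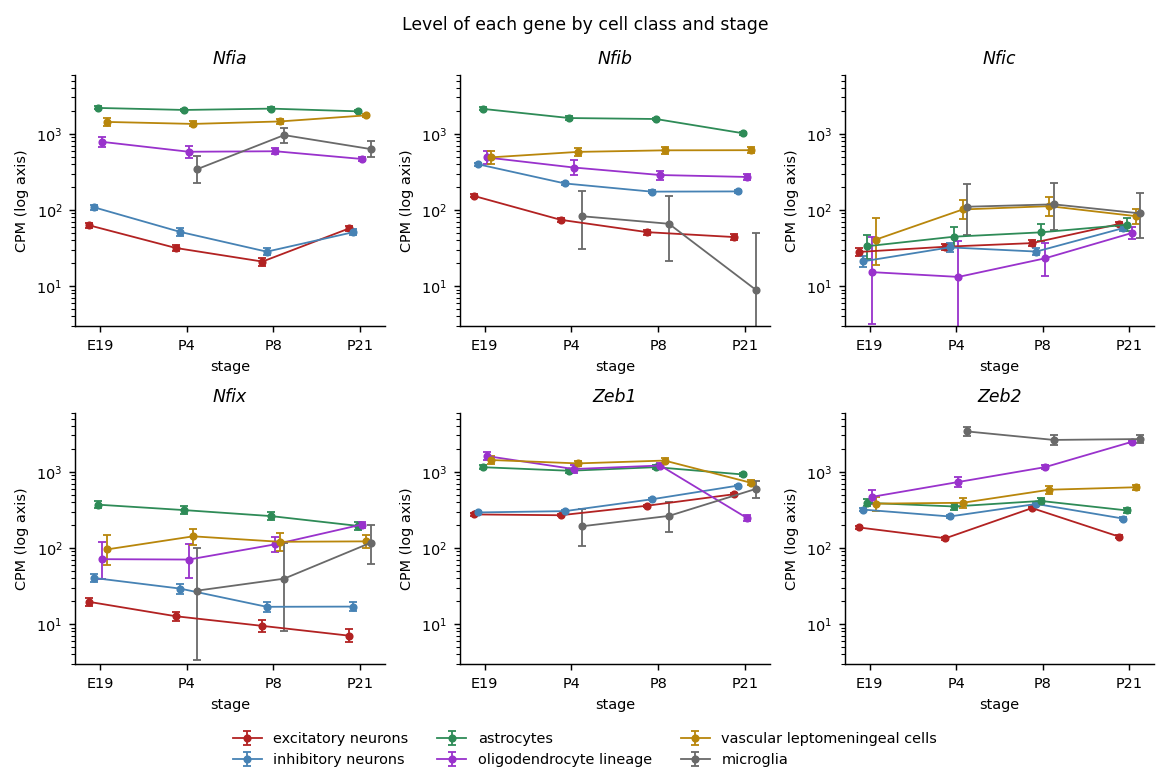
Levels of the 6 genes by stage in 6 cell classes, in CPM on a log axis, where each point is the summed count of 1 library and bars are 95% Poisson intervals. Classes with under 20 nuclei in a library are left out. Astrocytes hold the top line for Nfib at each stage, microglia for Zeb2 where they have 20 nuclei, and the lines for Nfic lie close together.

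Astrocytes kept Nfia near 1 level while Nfib and Nfix were lower at the later stages. Nfib in astrocytes was 2126, 1610, 1564 and 1018 CPM by stage, and the E19 to P21 log2 ratio was -1.06 (-1.15 to -0.96). Nfix stood at 370, 314, 262 and 195 CPM, a log2 ratio of -0.91 (-1.12 to -0.69). Nfia had a ratio of -0.15. Among the 6 genes Nfib alone passed the 2-fold call, in the lower direction, beside 18.2% of 8577 genes lower and 8.6% higher, so a lower level is common among genes of these astrocytes. With median-of-ratios scaling, another way to set the level of the libraries, the Nfib ratio was -0.76 and its call ended, while Nfic went from 0.84 to 1.11 and passed the call.

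Both astrocyte subtypes had less Nfib at P21, with 2108 and 1018 CPM at E19 and P21 in protoplasmic and 2194 and 1023 CPM in fibrous astrocytes, but they differed in Nfix. Protoplasmic astrocytes, the type found in grey matter, had Nfix at 363 CPM at E19 and 173 at P21, a log2 ratio of -1.05 (-1.29 to -0.80). Fibrous astrocytes, the type of fibre tracts, had 399 and 331 CPM, a ratio of -0.27 (-0.72 to 0.19) from 41 and 55 nuclei. The difference between these 2 ratios was not tested. At P21 Nfix was 1.91-fold higher in fibrous than in protoplasmic astrocytes. Zeb1 was higher in protoplasmic than in fibrous astrocytes at each of the 4 stages, with 1237, 1113, 1223 and 995 CPM against 808, 749, 813 and 481 CPM. The P21 log2 difference between the subtypes was 1.04 (0.76 to 1.32).

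Most single nuclei of protoplasmic astrocytes carried both Nfia and Nfib. After thinning, 146 of 155 nuclei had UMIs of both at E19, and 190 of 232 at P21, when 37 had Nfia alone and 3 had Nfib alone. Nfib was the gene lacking in most of the nuclei that had 1 of the pair at P21.

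The other non-neuronal classes shared high Nfia but differed in Nfib and in the ZEB genes. Vascular leptomeningeal cells, the fibroblast-like cells of the meninges and vessels, held Nfia at 1432, 1348, 1452 and 1747 CPM and Nfib at 491, 579, 607 and 609 CPM. The class labelled epithelial had 1886 CPM of Nfia and 1545 CPM of Nfib at P8, and 2198 and 1528 CPM at P21, from 32 and 40 nuclei. Dividing cells at E19 had 2098 CPM of Nfia and 1825 CPM of Nfib from 36 nuclei. At P21 the Nfia intervals of the epithelial-labelled class and of astrocytes lay side by side with an overlap, and leptomeningeal cells came next without one. The ZEB genes of leptomeningeal cells had opposite orders, Zeb1 with 1428, 1289, 1404 and 716 CPM and Zeb2 with 382, 392, 582 and 627 CPM. Their log2 ratios of P21 over P4 were -0.84, or 0.555-fold, for Zeb1 and 0.67 (0.44 to 0.90), or 1.60-fold, for Zeb2. Endothelial cells, with 20 or more nuclei at P4 alone, held 1170 CPM of Zeb1 and 581 CPM of Zeb2.

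Microglia, the immune cells of the brain, held little Nfib and much Zeb2. Their Nfia was 344, 961 and 630 CPM at P4, P8 and P21, above both neuron classes. Nfib in microglia was 82.7, 65.9 and 9.0 CPM at P4, P8 and P21, the last from 1 UMI in 33 nuclei. Zeb2 in microglia was 3390 (2979 to 3841), 2621 and 2692 CPM (2395 to 3015) at those stages, and all 23 microglial nuclei at P4 had a Zeb2 UMI after thinning. Microglia held the highest Zeb2 level of the classes at each of these stages, although at P21 the oligodendrocyte lineage, at 2471 CPM, lay within the microglial interval.

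Between genes, levels were also set side by side per length of the gene body. This scale raises short genes, and whether it suits these counts was not tested. At P21 Zeb2 in microglia reached 20.1 CPM per kb and in the oligodendrocyte lineage 18.5 CPM per kb. In astrocytes Nfia stood at 5.70, Zeb1 at 5.03 and Nfib at 2.45 CPM per kb. In excitatory neurons the values were 2.76 for Zeb1, 1.10 for Nfic, 1.06 for Zeb2, 0.165 for Nfia, 0.106 for Nfib and 0.0702 for Nfix. On this scale Nfic, a short gene with low counts, was above the other NFI genes in the excitatory class at P21.

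Nfic was the member with the least difference between cell types. At P21 it ranged from 49.7 CPM in the oligodendrocyte lineage to 90.0 CPM in microglia, and the intervals of all 6 neighbouring pairs of classes overlapped. Its level was higher at P21 than at E19 in both neuron classes, with 28.1, 32.9, 36.7 and 65.2 CPM in excitatory and 21.1, 32.3, 28.4 and 57.7 CPM in inhibitory neurons. In both classes the P21 value stood apart from those of the 3 earlier stages. Astrocytes showed the same order, from 33.5 CPM (22.7 to 47.5) at E19 to 64.0 (52.3 to 77.5) at P21.

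In neurons taken as classes, some of the 6 genes were lower at P21 than at E19 and others higher. Nfia was near even between these stages in excitatory neurons, with a log2 ratio of -0.13 (-0.26 to 0.006). Of the 6, 2 passed the 2-fold call in excitatory neurons, Nfib lower and Nfic higher, beside 10.7% of 7650 genes lower and 5.35% higher. Nfib there was 153, 74.3, 51.1 and 44.1 CPM over the 4 stages, and its E19 to P21 log2 ratio was -1.68 (-1.80 to -1.57). The ratio of Nfic was 1.08 (0.93 to 1.24), and 0.88 after thinning, which ends its call. Zeb1, at 276, 269, 359 and 507 CPM, had a ratio of 0.87 (0.81 to 0.93), short of the call. Nfix, with a ratio of -1.03, stayed under 20 CPM and could not be called. Zeb2 had a ratio of -0.38 in the class and of -1.21 when each subtype got the same weight, which makes it a call in that setting, beside Nfib (-1.03) and Nfic (1.09).

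In inhibitory neurons 5 of the 6 genes passed the call, 3 lower and 2 higher, beside 11.3% of 7807 genes lower and 5.83% higher. Nfia (-1.02), Nfib (-1.16) and Nfix (-1.05) were lower and Nfic (1.26) and Zeb1 (1.16) higher at P21. The Nfib levels were 398, 223, 174 and 175 CPM, with little difference between P8 and P21 in the class sum. Within subtypes Nfib was still lower at P21 than at P8 in 11 of 12, with a median log2 ratio of -0.48 and 1 past 2-fold. The subtypes share the libraries and are not separate replicates, and the share of all genes with such a count was not taken. Zeb1 was 293, 304, 435 and 659 CPM, with the higher values at P8 and P21. Zeb2, at 319, 259, 378 and 243 CPM, had a ratio of -0.38 and no steady order. Nfia and Nfix lie close to the 2-fold line, and median-of-ratios scaling put both short of it, at -0.92 and -0.97, and left 3 calls. Without IN4 the Nfia ratio was -0.81. Zeb1 fell short of the call when each subtype got the same weight (0.92). Nfic fell short of it with 20 CPM added in place of 5 (0.92).

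Nfib also differed between the neuron classes when summed over all subtypes. It was higher in inhibitory than in excitatory neurons by 2.60-, 3.00-, 3.41- and 3.97-fold over the 4 stages. It was the 1 gene of the 6 with a 2-fold difference between these classes in every library, beside 0.547% of 6219 genes higher and 0.579% lower in the inhibitory class. When each subtype got the same weight, the count was 0. Without IN4 and IN8 the inhibitory Nfib level was 160 CPM at E19 and 31.0 at P21. Without EN11 the excitatory level was 52.0 CPM at E19 and 30.0 at P21.

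Among neuron subtypes Nfib was highest in EN11, IN4 and IN8. In IN4 Nfib was 2781, 1612, 1291 and 1089 CPM by stage, from 71, 83, 105 and 94 nuclei. At P21 this was close to the 1018 CPM of astrocytes, and it was 66.5 times the median neuron subtype. EN11 had 1743 CPM at E19 and 1095 at P4, from 84 and 52 nuclei, but it held 18 and 9 nuclei at P8 and P21, too few to be read closely. IN8 had 1384, 774, 762 and 677 CPM. A middle group held less, EN13 with 468, 232, 88.5 and 188 CPM, IN10 with 330, 115, 106 and 66.3 CPM and IN1 with 273, 123, 127 and 105 CPM. The median over all neuron subtypes was between 16.4 and 48.7 CPM.

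The 3 subtypes differed in which NFI genes they combined. IN4 also held Nfix at 311, 231, 145 and 108 CPM and Nfia at 687, 308, 139 and 156 CPM. EN11 had 192 and 170 CPM of Nfix and 602 and 417 CPM of Nfia at E19 and P4. IN8, by contrast, held Nfix at 12.1, 21.1, 18.4 and 22.6 CPM and Nfia at 38.8, 34.3, 10.5 and 85.9 CPM. IN8 was thus high in Nfib and held less Nfix than IN4 at all 4 stages. Its Nfix was near the median neuron subtype at E19, which had 12.7 CPM, and above the medians of 10.4, 5.03 and 3.81 CPM at the later stages.

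Single nuclei were compared in the same subtypes. Of 84 EN11 nuclei at E19, thinned to an equal depth, 41 had UMIs of both Nfia and Nfib, 30 of Nfib alone and 4 of Nfia alone. Of 71 IN4 nuclei at E19, 29 had both, 38 Nfib alone and 0 Nfia alone, which allows a share of up to 4.23%. Of 66 IN8 nuclei at E19, 3 had both, 36 Nfib alone and 4 Nfia alone. At P21 the 2 inhibitory subtypes were closer, with 18 of 94 IN4 nuclei and 8 of 40 IN8 nuclei having both. Nfia alone was then seen in 1 IN4 and 4 IN8 nuclei.

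**Figure D2:**
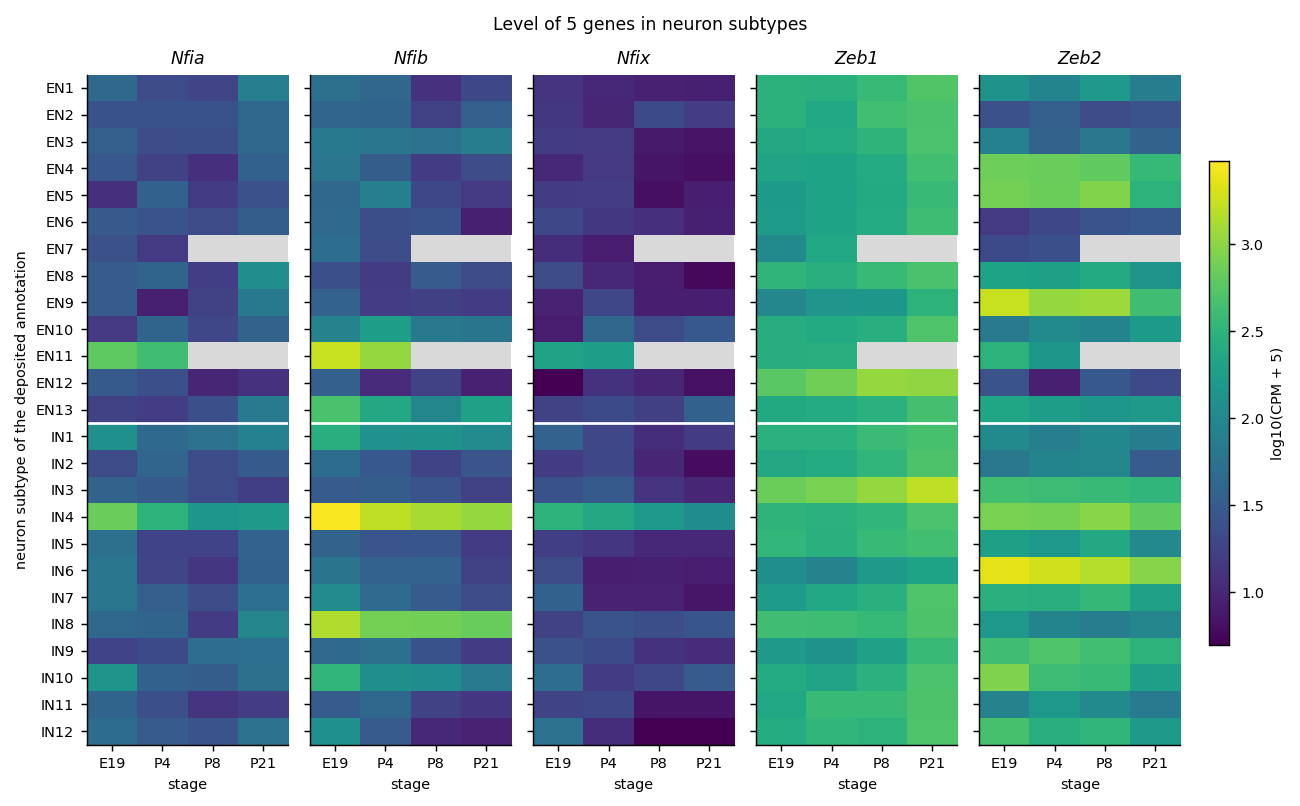
Levels of 5 genes in the 25 neuron subtypes of the deposited annotation, by stage, as log10 of CPM with 5 added, where grey fields hold under 20 nuclei and the white line parts excitatory from inhibitory subtypes. EN11 and IN4 are bright for Nfia, Nfib and Nfix, IN8 for Nfib, and EN4, EN5, EN9 and IN6 for Zeb2.

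A few subtypes held a larger share of NFI UMIs than of nuclei in their class. EN11 made up 6.28% of excitatory nuclei at E19 and held 68% of the excitatory Nfib UMIs, 57.1% of Nfia and 58.4% of Nfix. At P21 it made up 1.32% of nuclei and held 33.9% of Nfib, 14.3% of Nfia and 30.1% of Nfix. IN4 and IN8 together made up 15.3% to 18.1% of inhibitory nuclei and held 64.9%, 71.7%, 83.1% and 85.1% of Nfib UMIs over the 4 stages. IN4 alone held 36.8%, 42.2%, 35.0% and 30.6% of inhibitory Nfia and 44.8%, 55.6%, 61.5% and 64.1% of Nfix. Without these subtypes Nfib was 52.0, 37.8, 23.5 and 30.0 CPM in excitatory and 160, 72.5, 34.1 and 31.0 CPM in inhibitory neurons. The E19 to P21 log2 ratio of Nfib in excitatory neurons was -1.68 with EN11 and -0.71 without it, and the 2-fold call ended.

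Astrocyte markers were measured in the same subtypes, because astrocytes are rich in the same NFI genes. The summed level of Slc1a2, Slc1a3, Aqp4 and Gja1 in IN4 was 406, 313, 218 and 128 CPM, and IN4 ranked first or second among neuron subtypes in each library, with 0 of the 4 markers at 0. Most of it was Slc1a2, at 345 CPM at E19 and 104 at P21, while Aqp4 and Gja1 stood at 11.5 and 14.4 CPM at E19. In IN8 Slc1a2 was 165 CPM at E19 and 58.8 at P21, and Aqp4 and Gja1 were 4.85 and 12.1 CPM at E19. EN11 had a sum of the 4 markers of 170 and 171 CPM at E19 and P4 and ranked 9 of 25 in both. In astrocytes the same sum was 1893, 1905, 2937 and 5798 CPM. At P21 IN4 had 1089 CPM of Nfib against 1018 in astrocytes, and a marker sum of 128 against 5798 CPM. The part of astrocyte RNA in the Nfib level of IN4, IN8 or EN11 was not tested at any stage.

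The low Nfia of excitatory neurons was set beside the same markers. In the whole class Nfia stood at 2.88%, 1.54%, 0.981% and 2.90% of its astrocyte level over the 4 stages. Without EN11 it was 28.7, 17.9, 13.4 and 50.4 CPM, or 1.31%, 0.873%, 0.624% and 2.55% of the astrocyte level. The 4 astrocyte markers stood at 2.25% to 18.3% of theirs in the E19 library, 2.64% to 13.5% in the P4 library, 1.78% to 5.76% in the P8 library and 0.795% to 1.30% in the P21 library. Without EN11, Nfia was under the lowest marker up to P8 and above all 4 markers at P21. The part of free RNA in these levels was not tested.

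Nfia was lowest at P8 in both neuron classes and higher again at P21. In excitatory neurons it was 21 CPM at P8 and 57.2 at P21, a log2 ratio of 1.26 (1.09 to 1.42) beside 2.15% of 7117 genes with a 2-fold higher level over this step. It was higher at P21 than at P8 in 11 of 11 excitatory subtypes, of which 5 passed 2-fold, and in 11 of 12 inhibitory subtypes, of which 5 passed. These subtypes share the P8 and P21 libraries, so they are not separate replicates, and the share of all genes with such counts was not taken. For the inhibitory class the ratio was 0.75 (0.58 to 0.92), short of the call, and the P21 level was below that of E19. EN1 had 14 CPM at P8 and 72.7 at P21, 5.21-fold more, and EN8 had 11.5 and 114 CPM, 9.90-fold more, with 61 of 153 UMIs of EN8 at P21 in 1 nucleus. Without the nucleus richest in Nfia the class ratio was 1.19. In EN11 at P21, 94 of 119 Nfia UMIs came from 1 nucleus, so that value says little about the subtype.

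Within subtypes, the order of stages was more even than the class sums. In 23 subtypes with 20 or more nuclei at both E19 and P21, Nfib was lower at P21 in 22, and 17 of these passed 2-fold. The median log2 ratio was -1.33, and the lowest was -3.76 in IN12. Nfix was lower in 18 of 23, with a median of -1.12 and 4 past 2-fold, and at levels of a few UMIs in most subtypes. Nfia was higher in 14 and lower in 9, between -2.10 in IN4 and 1.97 in EN13. Of 6001 genes that, like Nfib, reached 20 CPM in at least 22 of the subtypes, 17.3% were lower in at least 22 and 7.02% were 2-fold lower in at least 17.

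Nfic and Zeb1 were higher at P21 in every subtype compared. Nfic was higher at P21 in 23 of 23 subtypes, of which 17 passed 2-fold, with a median log2 ratio of 1.15. Zeb1 was also higher in 23 of 23, of which 10 passed, with a median of 0.95 and a range from 0.26 in IN8 to 1.70 in EN9. Among 5416 genes with 20 CPM in every subtype, 8.38% were higher in all of them, 3.05% were 2-fold higher in at least 17 and 6.87% in at least 10. The subtypes share their 2 libraries, so they are not separate replicates of the stage difference.

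**Figure D3:**
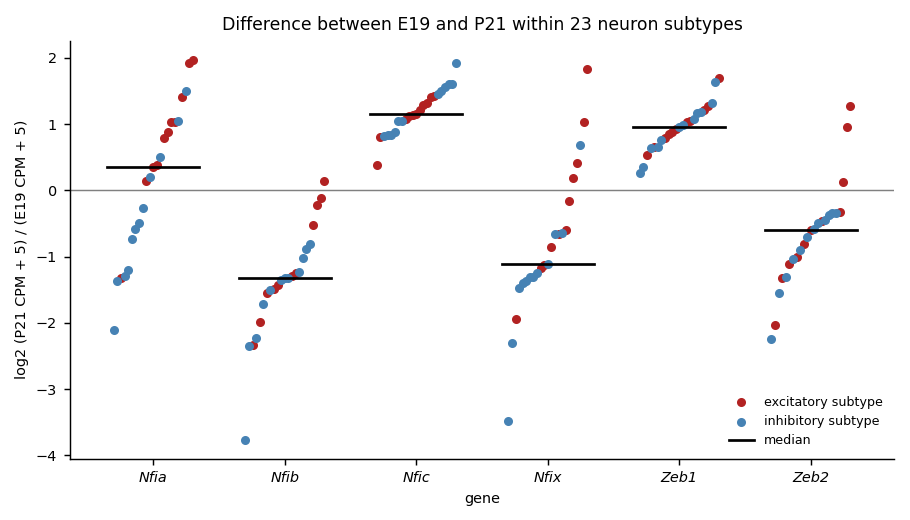
Log2 ratio of P21 over E19 within 23 neuron subtypes for each gene, with 5 CPM added, where each point is a subtype and the black line is the median. All points of Nfic and Zeb1 lie above 0, all but 1 of Nfib lie below, and Nfia spreads on both sides.

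Zeb1 was broadly expressed in neurons, with less difference between subtypes than the other genes except Nfic. Its highest subtype was 7.40- to 9.58-fold above its lowest in the 4 libraries, while for Zeb2 the range was 45.7- to 214-fold and for Nfib 116- to 151-fold. In all, 5 of the 6 genes spanned 4-fold or more in every library, beside 15% of 8158 genes, and Nfic was the exception. After thinning, 42.1%, 41.3%, 46.9% and 63.0% of excitatory nuclei had a Zeb1 UMI. The shares in inhibitory nuclei were 42.7%, 48.0%, 51.2% and 66.5%, so the higher level at P21 went with a higher share of nuclei.

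IN3 and EN12 held the most Zeb1 among neurons. In IN3 it was 708, 827, 1088 and 1605 CPM, a log2 ratio from E19 to P21 of 1.17 (0.98 to 1.37). In EN12 it was 578, 746, 1091 and 1045 CPM, with a ratio of 0.85 (0.57 to 1.13). At P21 the Zeb1 of IN3 was above the 923 CPM of astrocytes. The share of IN3 among inhibitory nuclei was 7.50% at E19 and 17% at P21, and it held 12.3% and 42.9% of their Zeb1 UMIs. Without IN3 the inhibitory level was 271 CPM at E19 and 457 at P21.

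Zeb2 marked other neurons. In IN6 it was 2321, 1881, 1478 and 933 CPM by stage, and in EN9 1746, 1082, 1158 and 421 CPM. EN4 had 727, 686, 628 and 358 CPM and EN5 776, 707, 880 and 306 CPM. IN4, the subtype rich in NFI genes, also had Zeb2, at 817, 774, 966 and 631 CPM. The E19 level of IN6 lay below the 2621 to 3390 CPM of microglia at P4 to P21. The summed microglial markers Csf1r, Cx3cr1, C1qa and P2ry12 reached 6.63 to 19.7 CPM in IN6 and 10.0 to 18.3 CPM in EN9, against 1957 to 2647 CPM in microglia. Between 60.0% and 87.2% of IN6 and EN9 nuclei had a Zeb2 UMI after thinning.

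EN12 was the reverse, with high Zeb1 and very few Zeb2 UMIs. Its Zeb2 level was 20.6, 3.83, 24.2 and 15.5 CPM, from 4, 2, 24 and 19 UMIs. In turn Zeb1 was low in EN9, with 91.4, 136, 143 and 308 CPM, and in IN6, with 116, 81.8, 149 and 200 CPM. IN3 combined high Zeb1 with a middle Zeb2 of 427, 394, 371 and 336 CPM. Over 96 combinations of neuron subtype and stage, log2 levels of Zeb1 and Zeb2 had a Pearson correlation of -0.36, and over 124 combinations with glia of -0.11. These points share libraries, depth and stages and are no independent samples.

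**Figure D4:**
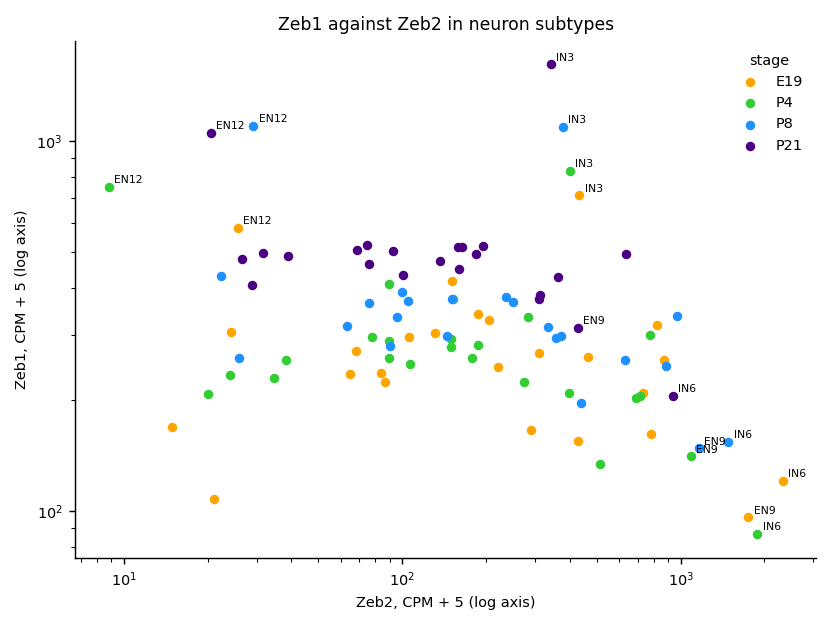
Zeb1 against Zeb2 in neuron subtypes with 20 or more nuclei, both in CPM with 5 added on log axes, where each point is a subtype in 1 library and colours are stages. EN9 and IN6 lie at the lower right, EN12 at the upper left, and IN3 at the top with middle Zeb2.

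Zeb2 was lower at P21 than at E19 in the subtypes where it was high. The E19 to P21 log2 ratio was -1.31 (-1.47 to -1.15) in IN6, -2.04 (-2.24 to -1.83) in EN9 and -2.24 (-2.62 to -1.87) in IN10. In IN4 it was -0.37 (-0.57 to -0.17). Over the 23 subtypes, 20 were lower and 3 higher at P21, with a median of -0.59 and 8 past 2-fold lower, and 24.3% of 5416 genes were lower in at least 20. EN10 had the highest ratio, 1.27, from 63.2 to 159 CPM.

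For the excitatory class as a whole Zeb2 looked different, with 334 CPM at P8 between 134 at P4 and 141 at P21. The subtypes EN4, EN5 and EN9 were 11.1%, 11.5%, 31.7% and 27.6% of excitatory nuclei at the 4 stages and held 47.3%, 52.6%, 77.0% and 56.4% of the Zeb2 UMIs. Without them Zeb2 was 108, 69.8, 109 and 79.4 CPM. From P4 to P8 it was higher in 7 and lower in 4 of 11 subtypes, 1 of them past 2-fold, while the class log2 ratio was 1.29 (1.21 to 1.36) beside 0.361% of 7210 genes past 2-fold higher. From P8 to P21 it was lower in 7 of 11, 3 of them past 2-fold, and the class ratio was -1.21, beside 3.2% of genes past 2-fold lower.

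In the oligodendrocyte lineage Zeb1 and Zeb2 had opposite levels along maturation. Of the 6 genes, 4 passed the 2-fold call from P4 to P21, Nfic (1.59, 0.38 to 2.80, from 3 UMIs at P4), Nfix (1.46, 0.79 to 2.14) and Zeb2 (1.74) higher and Zeb1 (-2.11) lower, beside 12.4% of 8357 genes higher and 26.9% lower. The lineage also changed in makeup. Precursor nuclei were 77.8% of it at P4 and 20.9% at P21, and myelinating nuclei 0% (0 of 54, with an exact upper 95% limit of 6.60%) and 61.1%. The class values of Zeb1 were 1608, 1087, 1209 and 248 CPM and those of Zeb2 468, 735, 1151 and 2471 CPM.

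Precursors kept a high Zeb1 level at every stage. It was 1653, 1409, 1590 and 1636 CPM by stage, and the P4 to P21 log2 ratio was 0.22 (-0.01 to 0.44). At P21 Zeb1 was 94.7 CPM in committed and 30.0 CPM (22 to 39.9) in myelinating oligodendrocytes, 54.6-fold below the precursors (log2 ratio -5.55, from -5.93 to -5.18). At P8 it was already 4.64-fold lower in committed cells than in precursors, with 343 against 1590 CPM. The lower Zeb1 of the class was thus seen between subtypes of the same library and not within precursors over time. Within committed cells Zeb1 was also lower at P21 than at P8, with 94.7 against 343 CPM.

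Zeb2 differed on both counts. In committed cells it was 2708 CPM at P8 and 2746 at P21, and in myelinating cells 2664 CPM at P21. Against precursors of the same library this was 5.32-fold higher at P8 and 2.71-fold higher at P21 in committed cells, and 2.62-fold higher in myelinating cells. Within precursors Zeb2 was 399, 416, 509 and 1015 CPM, a P4 to P21 log2 ratio of 1.28 (0.91 to 1.65). Precursor Zeb2 at P21 thus lay between its earlier level and that of committed cells. The summed markers of mature oligodendrocytes Mbp, Mog and Mobp in the same precursors were 26.2, 83.2, 54.6 and 284 CPM, and they were also highest at P21 in astrocytes (151 CPM) and both neuron classes. In the P21 library they were 10122 CPM in committed and 15349 CPM in myelinating cells. Their part in the Zeb2 level of precursors was not tested.

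**Figure D5:**
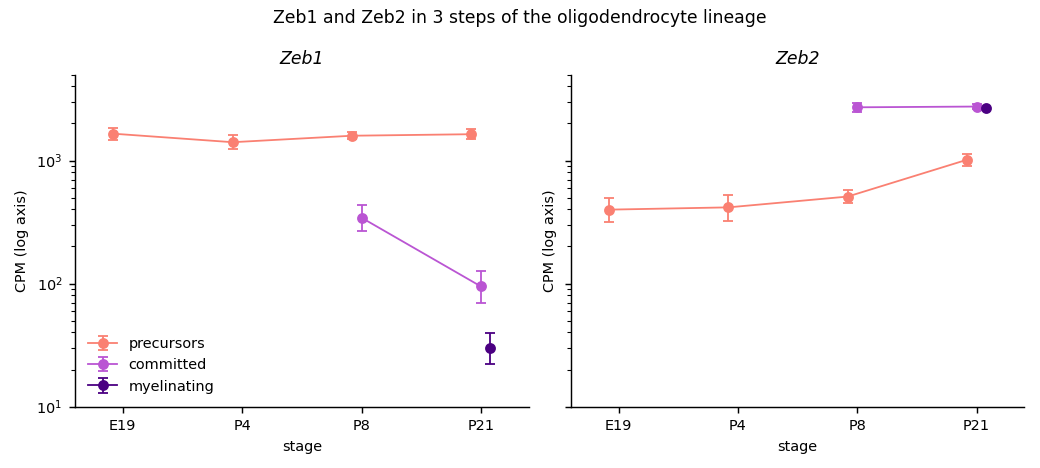
Zeb1 and Zeb2 in oligodendrocyte precursors, committed and myelinating oligodendrocytes by stage, in CPM on a log axis with 95% Poisson intervals, for subtypes with 20 or more nuclei in a library. Zeb1 is between 1409 and 1653 CPM in precursors and at 30.0 CPM in myelinating cells, and Zeb2 is between 2664 and 2746 CPM in committed and myelinating cells.

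Single nuclei showed the same order. Of 64 precursor nuclei at P21, 44 had UMIs of both genes after thinning, 16 Zeb1 alone and 4 Zeb2 alone. Of 55 committed nuclei, 6 had both, 0 Zeb1 alone and 49 Zeb2 alone. Of 187 myelinating nuclei, 20 had both, 1 Zeb1 alone and 165 Zeb2 alone.

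The NFI genes in this lineage were lowest in the committed step. At P21 Nfia was 721 CPM in precursors, 202 in committed and 500 in myelinating cells. Nfib was 434, 98.8 and 293 CPM and Nfix 180, 57.6 and 253 CPM in the same order. From committed to myelinating cells the log2 ratios were 1.29 (0.99 to 1.59) for Nfia, 1.52 (1.11 to 1.93) for Nfib and 2.04 (1.53 to 2.55) for Nfix. Committed cells were the lowest of the 3 steps for each of these genes, and Nfix alone was higher in myelinating cells than in precursors. Its intervals overlapped there, with 228 to 279 CPM in myelinating cells and 135 to 235 CPM in precursors. At P8 committed cells were also below precursors, with 381 against 689 CPM for Nfia, 138 against 355 for Nfib and 57.1 against 137 for Nfix.

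Genes of the pathways in which the 6 genes act were listed from textbook knowledge and are given by counts. Of 22 ZEB partners and corepressors, 18 reached 20 CPM in excitatory neurons, and 0 were 2-fold higher and 2 lower at P21, beside 5.35% of all genes higher and 10.7% lower, a share near that of the list. Their median log2 ratio was -0.21 against -0.06 over all genes. In inhibitory neurons 0 of 18 were higher and 4 lower, beside 5.83% and 11.3% of all genes, with a median of -0.38 against -0.04. Ctbp1, a corepressor bound by ZEB proteins, was 45.5 CPM at E19 and 17.6 at P21 in excitatory neurons (-1.16), and Mbd3, a subunit of a deacetylase complex, had a ratio of -1.15. The highest ratios were those of Smad7, an inhibitory SMAD, at 0.76 and of the acetyltransferase Kat2b at 0.37. In inhibitory neurons the extremes were Mbd3 (-1.38), Ctbp1 (-1.19), Smad7 (0.67) and the corepressor subunit Rcor1 (0.58).

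Of 18 astrocyte genes linked to NFI factors, 18 were measured in astrocytes, and 6 were 2-fold higher and 4 lower at P21 than at E19, beside 8.6% of all genes higher and 18.2% lower. The lower share is near that of all genes. The median ratio was 0.33 against -0.24 over all genes, and 7 were higher and 3 lower with median-of-ratios scaling. Gfap, an intermediate filament gene, was 3.24 CPM at E19 and 285 at P21, and the glypican gene Gpc5 362 and 7952 CPM. Fabp7, a lipid-binding gene of radial glia, was 869 and 67.7 CPM, and Apcdd1, a Wnt inhibitor, had a ratio of -2.27. Some of these genes mark astrocyte maturation in general, and the list is not evidence of NFI activity.

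Of 11 oligodendrocyte genes linked to Zeb2, 9 reached 20 CPM in the lineage, and 3 were 2-fold higher and 3 lower at P21 than at P4, or 4 and 2 with median-of-ratios scaling. Of all genes 12.4% were higher and 26.9% lower, the latter near the share of the list. The median was -0.39 against -0.32 over all genes. Smad7, an inhibitor of TGF-beta and BMP signalling, was 44.0 and 473 CPM, while Hes5, a Notch target, was 132 and 8.08 CPM and Id4, an inhibitor of differentiation, had a ratio of -2.12. These are values of the whole lineage, whose makeup differed between the stages as given above.

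Of 9 maturation genes linked to NFI factors in cerebellar granule neurons, 6 reached 20 CPM in excitatory neurons, with 1 higher and 0 lower by 2-fold, beside 5.35% and 10.7% of all genes, and a median log2 ratio of 0.08 against -0.06. Nefm, a neurofilament gene, had a ratio of 1.07 and the adhesion gene Cntn2 of 0.57, while Cdh2, a cadherin, had -0.35 and the teneurin Tenm1 -0.69. In inhibitory neurons 4 reached 20 CPM and 0 passed 2-fold in either direction, with a median of 0.18 against -0.04. There Cntn2 stood at 0.66, Nefm at 0.63, Tenm1 at -0.28 and Cdh2 at -0.56.

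Epithelial genes known to be repressed by ZEB proteins were nearly absent from neurons and astrocytes, where the 14 genes summed to 9.19 CPM or less. In the class labelled epithelial Cdh1 alone stood out, at 403 CPM at P8 and 422 at P21, with 12 of 14 genes at 0. That class had Zeb1 at 288 and 440 CPM and Zeb2 at 235 and 182 CPM, so Cdh1 was present in a class with both ZEB genes. Leptomeningeal cells at P21 had 54.5 CPM of Cdh1. The other transition factors, Snai1, Snai2, Snai3, Twist1 and Twist2, summed to at most 67.0 CPM, in leptomeningeal cells at P4.

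The genes with the profile most like each member were sought among 10221 genes over 124 combinations of subtype and stage. For Nfia they were Nfix (Pearson r = 0.89), Zcchc24 (0.87) and Zbtb20 (0.86), and for Nfib Nfix (0.86), the antisense gene Gm11266 (0.78) and Plpp3 (0.78). For Nfix they were Nfia, Nfib and Plpp3 (0.85). Nfic was most like Luc7l2 (0.74), Mllt10 (0.73) and Mdm4 (0.72), Zeb1 like Kcnip3 (0.65), Slc38a3 (0.63) and Lpp (0.63), and Zeb2 like Bicra (0.60), Prkd3 (0.59) and Sf3b1 (0.55). The NFI genes other than Nfic thus had one another near the top, while neither ZEB gene had a close match. Within the 96 neuron combinations, a scope added after the values were seen, Nfib and Nfix had r = 0.80, Nfia and Nfix 0.70 and Nfia and Nfib 0.63.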

How the data were processed

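Single-nucleus RNA counts of mouse superior colliculus were analysed in 4 libraries, 1 per stage. The deposited matrix holds UMI counts per gene and nucleus, made by the authors with Cell Ranger 3.0.2 on a pre-mRNA reference of mm10, per the labels' protocols. Class, subtype and stage are other values that the authors deposited with each nucleus, and a percent column gives mitochondrial counts (at most 5 per the deposited values). Another 9 columns of that table were not used. Treatment of doublets is not given in the sources used here.

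UMIs were summed by class or subtype and stage and scaled to CPM with Python 3.11.15, numpy 2.4.6, scipy 1.17.1 and pandas 2.3.3, and plotted with matplotlib 3.10.9. Poisson intervals are exact at 95%. Subtypes needed 20 nuclei. Thinning to 2300 UMIs left out 0 nuclei, since the shallowest held 2355. With 1 library per stage no test across replicates is possible and no p-value is given. The calculation was checked on simulated data. Gene positions come from GENCODE M21, which held 31011 of the 31053 gene identifiers.

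The members, lists and subtypes were chosen with earlier results of these data known. Genes named beside the members are the 3 most alike in profile and, for each list, the 2 highest and 2 lowest ratios with at least 20 CPM. Alternatives were another scaling, pseudocounts of 1 and 20 CPM, equal weight for nuclei or subtypes, thinning, and leaving out the deepest 5% of nuclei, EN7, EN11, IN4 or the nucleus richest in a gene.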

Additional observations from a re-analysis of the deposited data

How the results depend on the processing

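No paired analysis was possible because each stage has 1 library. For 96 single log2 ratios, 840 values were computed under alternatives. Of these, 681 moved by less than the counting interval, 158 moved by more, and 1 turned in direction, Zeb1 from P4 to P21 in the oligodendrocyte lineage, 0.22 with subtypes weighted alike, where precursors were the 1 subtype with 20 nuclei at both stages. The count of members past 2-fold from E19 to P21 in excitatory neurons was 2, and 1 with 20 CPM added or without EN11. There, thinning also put Nfic short of 2-fold (0.88), and equal weight for subtypes put Zeb2 past it (-1.21). In inhibitory neurons the count was 5, and 3 with median-of-ratios scaling, 2 with 20 CPM added and 3 with subtypes weighted alike. Inhibitory Nfia also fell short of 2-fold after thinning (-0.95) and without IN4 (-0.81). In the oligodendrocyte lineage the count was 4, and 2 with subtypes weighted alike. The count for inhibitory over excitatory neurons was 1, and 0 with subtypes weighted alike. Median-of-ratios scaling moved the median log2 ratio of all genes upward by 0.11 in excitatory neurons, 0.10 in inhibitory neurons, 0.26 in astrocytes and 0.22 in the lineage. The alternatives without EN11, IN4 or the richest nucleus were added after the values were seen. In astrocytes the count stayed at 1 with median-of-ratios scaling, but the gene was Nfic (1.11) and not Nfib (-0.76). Depth limits what can be said of Nfix in neurons, whose median subtype level was 3.81 CPM at P21.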
